A study of Mus musculus with 16 samples.

Results

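A set of 42 genes of the amino acid response that is controlled by the transcription factor ATF4 was followed in differentiating murine embryonic stem cells (mESCs). The genes were taken from a fixed list of names. They comprised 14 stress factors, 9 genes of amino acid synthesis, 7 amino acid transporters and 12 cytosolic aminoacyl-tRNA synthetases. All 42 had a probe on the array, and 41 of them were among the 30973 genes tested. The missing gene was the cystine transporter Slc7a11, for which none of 3 probes was well above background on any array.

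The mESCs were of the line CGR8-Myh6-GFP, in which the promoter of the cardiac myosin gene Myh6 drives a fluorescent reporter. They were differentiated by a spontaneous cardiac differentiation protocol in medium with serum, glutamine and non-essential amino acids, which was common to all groups. On day 4 they received DMSO as vehicle, the Crataegus (hawthorn) extract WS1442 at 0.25 mg/ml, or its subfraction MeOH eluate at 0.1 mg/ml. Cells were collected 6 h or 24 h later, with 2 DMSO samples and 3 samples of each treatment per time point, which gave 16 samples in 6 groups. Each sample was hybridised to a 1-colour Agilent array. Values are log2 signals after quantile normalization, and differences are log2 fold changes with their standard error (SE) from limma. A gene was called where the p-value adjusted over all tested genes by the Benjamini-Hochberg method was under 0.05, and "rose" and "fell" are used for called genes only.

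ATF4 is a basic leucine zipper factor whose mRNA is translated better when the initiation factor eIF2alpha is phosphorylated. The kinase GCN2 does this when uncharged tRNA accumulates, and the kinases PERK, PKR and HRI do it in response to unfolded proteins, double-stranded RNA and haem shortage or mitochondrial stress. Since much of this control is on translation, the Atf4 mRNA is only a partial measure of ATF4 activity. Together with C/EBP partners, ATF4 binds a composite C/EBP-ATF element and raises genes that import amino acids, make serine, glycine, proline and asparagine, and load amino acids onto tRNA. Trib3, Ddit3, Cebpb and Ppp1r15a feed back on the response. Proliferating stem cells use serine and glycine for nucleotide synthesis, which makes the mitochondrial folate enzymes Shmt2 and Mthfd2 part of the same programme.

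The core of the C/EBP-ATF element, TGATGNAA or its reverse complement TTNCATCA, was searched on both strands in the 250 bases before the start of each gene. The windows were taken from RefSeq (GRCm38.p6), and 33 of the 41 tested genes had one. The core was present in 9 of these 33 genes (27.3%), compared with 1056 of 27025 genes with a window (3.91%), or 1134 of 32851 windows (3.45%). It was found in 4 of 13 stress factors, 2 of 8 synthesis genes, 0 of 4 transporters and 3 of 8 tRNA synthetases. A match is a description of the sequence and was not tested as a binding site. The windows below belong to 6 called genes that hold the core and are shown because the changes reported next include these genes. Capitals mark the core, which lies 193 to 186 bases before the start in Chac1, 200 to 193 in Vldlr, 110 to 103 in Nupr1, 103 to 96 in Pycr1, 23 to 16 in Asns and 15 to 8 in Tars. All windows are written 5′ to 3′ on the strand of the gene.
Chac1, chr2:119350992-119351241, plus strand: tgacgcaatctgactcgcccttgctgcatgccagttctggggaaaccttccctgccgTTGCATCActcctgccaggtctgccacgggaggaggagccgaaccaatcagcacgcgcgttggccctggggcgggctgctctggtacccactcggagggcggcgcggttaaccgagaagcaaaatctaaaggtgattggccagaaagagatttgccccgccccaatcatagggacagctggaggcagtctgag
Vldlr, chr19:27216770-27217019, plus strand: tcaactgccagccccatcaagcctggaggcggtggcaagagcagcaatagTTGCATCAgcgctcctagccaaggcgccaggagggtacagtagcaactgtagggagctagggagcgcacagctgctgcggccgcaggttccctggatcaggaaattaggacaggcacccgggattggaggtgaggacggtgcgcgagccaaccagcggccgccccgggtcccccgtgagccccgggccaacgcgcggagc
Nupr1, chr7:126625471-126625720, minus strand: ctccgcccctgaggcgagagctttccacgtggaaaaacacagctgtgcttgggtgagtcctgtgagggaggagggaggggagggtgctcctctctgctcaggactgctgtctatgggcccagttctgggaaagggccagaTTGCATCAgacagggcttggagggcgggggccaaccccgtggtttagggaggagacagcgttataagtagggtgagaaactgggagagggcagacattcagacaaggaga
Pycr1, chr11:120643749-120643998, minus strand: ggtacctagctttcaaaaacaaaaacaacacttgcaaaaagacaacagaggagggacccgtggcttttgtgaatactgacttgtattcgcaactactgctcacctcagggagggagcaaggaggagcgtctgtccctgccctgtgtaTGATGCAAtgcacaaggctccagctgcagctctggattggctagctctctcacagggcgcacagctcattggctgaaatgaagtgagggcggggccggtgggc
Asns, chr6:7693210-7693459, minus strand: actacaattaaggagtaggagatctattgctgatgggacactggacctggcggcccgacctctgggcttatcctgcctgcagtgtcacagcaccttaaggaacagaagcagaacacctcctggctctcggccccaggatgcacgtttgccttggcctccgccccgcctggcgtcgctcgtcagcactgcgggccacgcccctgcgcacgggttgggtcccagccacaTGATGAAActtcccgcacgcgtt
Tars, chr15:11399659-11399908, minus strand: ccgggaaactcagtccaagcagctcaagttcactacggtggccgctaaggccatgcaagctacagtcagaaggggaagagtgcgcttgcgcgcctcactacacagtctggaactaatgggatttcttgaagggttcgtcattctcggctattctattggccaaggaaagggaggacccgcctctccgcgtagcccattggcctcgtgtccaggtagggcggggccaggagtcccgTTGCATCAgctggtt
The called genes Aars and Gars also held the core, as did Fgf21, which was called in no comparison with DMSO.

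Several properties of the arrays apply to all values. The arrays of the 6 h samples were on slide 1 and those of the 24 h samples on slide 2, so levels at 6 h and 24 h cannot be told apart from the slide. Each treatment was compared with DMSO on its own slide, but not in the same column. On both slides DMSO was in column 1, WS1442 in columns 2 and 3 and MeOH eluate in columns 3 and 4. A difference from DMSO can therefore not be told apart from the column. Both treatments of a time point share the same 2 DMSO samples. Nothing in the labels says that replicates were separate cultures, so p-values measure only the spread between these samples. In a bulk sample, fewer cells of a type and less RNA per cell cannot be told apart. All 6 pluripotency markers were well above background in every group, whereas the probe of Myh6 did not pass the filter. The Cy3 incorporation at 24 h was 31.8 to 32.8 pmol per µg with WS1442, 27.1 to 30.3 with MeOH eluate and 25.8 to 26.1 with DMSO. The RNA integrity number was 9.6 to 10 except for 8.6 in replicate 2 of WS1442 at 24 h, without which 33 genes of the set were called with WS1442 at 24 h in place of 34. The part of these differences in the results was not tested.

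After 24 h most of the genes were lower with both treatments. With WS1442 32 of 41 fell and 2 rose, compared with 12.1% and 12.4% of all tested genes. With MeOH eluate 31 fell and 2 rose, compared with 8.51% and 9.35%. The median change was -0.43 with WS1442 and -0.52 with MeOH eluate, whereas the medians over all tested genes were 0.04 and 0.01. In all, 29 genes fell with both treatments, Cth, Slc7a3 and Wars were called with WS1442 and not with MeOH eluate, and Cebpg and Eprs the reverse. Of these 5, only Eprs differed between the treatments when they were compared directly (adjusted p = 0.000853), while the others had adjusted p between 0.0644 and 0.306. Ddit4 and Cebpb rose with both, and Atf4, Cars, Ddit3, Fgf21 and Sesn2 were called with neither. All treated arrays were below both DMSO arrays for 36 genes with WS1442 and 33 with MeOH eluate, compared with 24.1% and 21.6% of all genes. The drop exceeded 2-fold for Trib3 and Slc7a5 with WS1442, compared with 0.342% of all genes, and for 9 genes with MeOH eluate, compared with 0.785%.

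**Figure D1:**
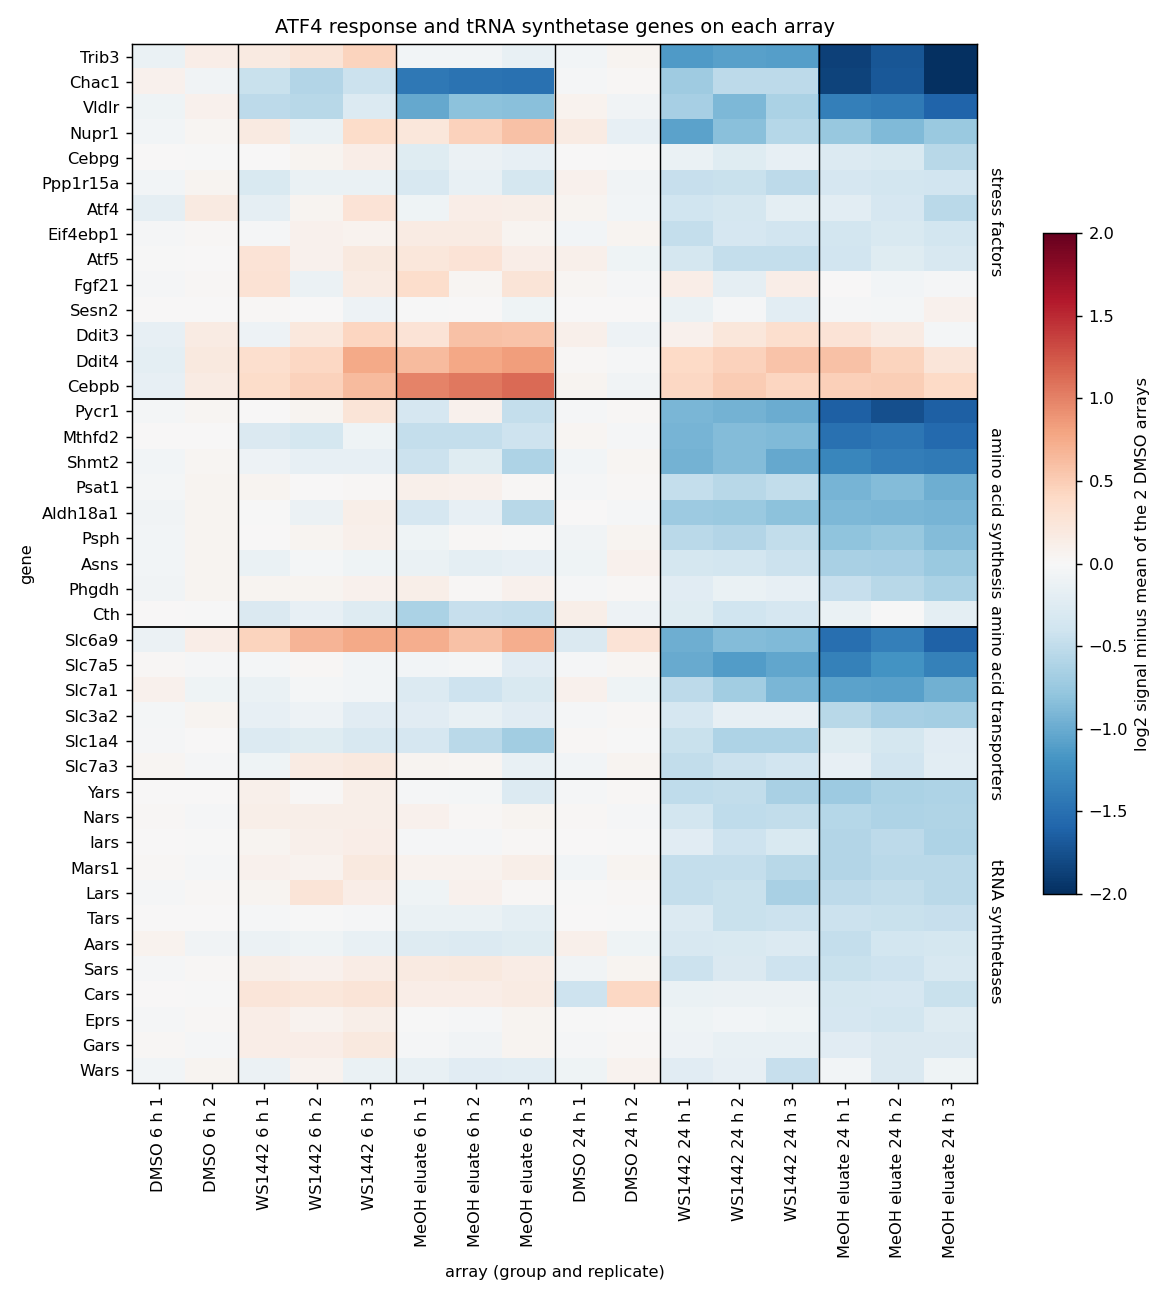
Log2 signal of the 41 tested genes on each of the 16 arrays, relative to the mean of the DMSO arrays of the same time point, ordered by class. At 24 h 37 of the 41 genes have a mean below DMSO with each treatment, while at 6 h 16 do with WS1442 and 24 with MeOH eluate.

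Among the stress factors, 7 of 14 fell and 2 rose with WS1442 at 24 h, and 8 fell and 2 rose with MeOH eluate, with a median of -0.36 for both. Trib3 encodes a pseudokinase that is induced by ATF4 and dampens its activity. Its log2 signal was 9.97 and 10.07 in the DMSO samples, 8.88, 8.93 and 8.92 with WS1442 and 8.15, 8.31 and 7.69 with MeOH eluate. The 3 groups did not overlap, and MeOH eluate gave the lowest values. Trib3 fell by 1.11 ± 0.14 (SE) with WS1442 (adjusted p = 8.52e-05) and by 1.97 ± 0.14 with MeOH eluate (adjusted p = 3.58e-07). Chac1, a glutathione-degrading enzyme, had 9.80 and 9.84 with DMSO, 9.11, 9.30 and 9.29 with WS1442 and 7.97, 8.13 and 7.57 with MeOH eluate. It fell by 0.59 ± 0.12 (adjusted p = 0.00302) and by 1.93 ± 0.12 (adjusted p = 1.37e-07), again with no overlap between groups. Vldlr, the very low density lipoprotein receptor and an ATF4 target, had 9.83 and 9.69 with DMSO, 9.10, 8.86 and 9.13 with WS1442 and 8.39, 8.34 and 8.16 with MeOH eluate. Its decreases were -0.73 ± 0.11 (adjusted p = 0.000305) and -1.47 ± 0.11 (adjusted p = 5.74e-07).

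The other stress factors that fell with MeOH eluate did so by less than Trib3, Chac1 and Vldlr. With WS1442 the decrease of Nupr1 was larger than those of Chac1 and Vldlr. The stress-inducible nuclear protein Nupr1 had 6.90 and 6.56 with DMSO, 5.66, 5.90 and 6.16 with WS1442 and 5.97, 5.84 and 5.99 with MeOH eluate. Both treated groups lay below DMSO and overlapped each other, with changes of -0.83 ± 0.18 (adjusted p = 0.00394) and -0.80 ± 0.18 (adjusted p = 0.00599). Without DMSO 24 h replicate 1 these calls were lost (-0.66, adjusted p = 0.0705, and -0.62, adjusted p = 0.0985), and with normexp background correction the changes were -0.45 and -0.40. Ppp1r15a, which encodes the eIF2alpha phosphatase subunit GADD34, had 11.10 and 10.95 with DMSO, 10.56, 10.57 and 10.50 with WS1442 and 10.68, 10.66 and 10.64 with MeOH eluate. It fell by 0.48 ± 0.07 and 0.36 ± 0.07. The transcription factor Atf5, itself translated through upstream reading frames, fell by 0.44 ± 0.07 and 0.33 ± 0.07 (the second -0.23 and not called without DMSO 24 h replicate 1), and the translation repressor Eif4ebp1 by 0.40 ± 0.06 and 0.35 ± 0.06. Cebpg, a dimer partner of ATF4, fell with MeOH eluate by 0.38 ± 0.08 and had -0.18 ± 0.08 with WS1442 (adjusted p = 0.141).

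Cebpb and Ddit4 were the stress factors called higher at 24 h, and 4 of the 14 lay above DMSO with each treatment. Cebpb, which encodes a partner and competitor of ATF4 at the shared element, had 9.63 and 9.50 with DMSO, 9.98, 10.07 and 10.00 with WS1442 and 10.04, 10.06 and 9.97 with MeOH eluate at 24 h. It rose by 0.45 ± 0.09 with both (adjusted p = 0.00301 and 0.00298). Ddit4, an inhibitor of mTORC1 that also responds to hypoxia and glucocorticoids, had 14.22 and 14.17 with DMSO, 14.59, 14.65 and 14.76 with WS1442 and 14.78, 14.63 and 14.43 with MeOH eluate. It rose by 0.47 ± 0.13 (adjusted p = 0.014) and 0.42 ± 0.13 (adjusted p = 0.0334), but with scaling to the 75th percentile of each array the values were 0.21 and 0.20 and were not called. In all, the calls of Ddit4 were lost in 4 and 8 of 27 alternative analyses, the methods' t-test not counted. Those without DMSO 24 h replicate 1 or 2 were among them, at 0.50 and 0.45 with WS1442. The corresponding values with MeOH eluate were 0.44 and 0.39. Atf4 itself had 13.51 and 13.41 with DMSO, 13.06, 13.11 and 13.27 with WS1442 and 13.25, 13.12 and 12.92 with MeOH eluate. All treated arrays lay below both DMSO arrays, but the changes of -0.31 ± 0.13 (adjusted p = 0.1) and -0.36 ± 0.13 (adjusted p = 0.073) were not called. Ddit3, which encodes the pro-apoptotic factor CHOP, changed by 0.22 ± 0.15 and 0.13 ± 0.15 (adjusted p = 0.327 and 0.64). The leucine sensor gene Sesn2 and the stress hormone gene Fgf21 had changes between -0.12 and 0.02, with adjusted p between 0.179 and 0.973.

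**Figure D2:**
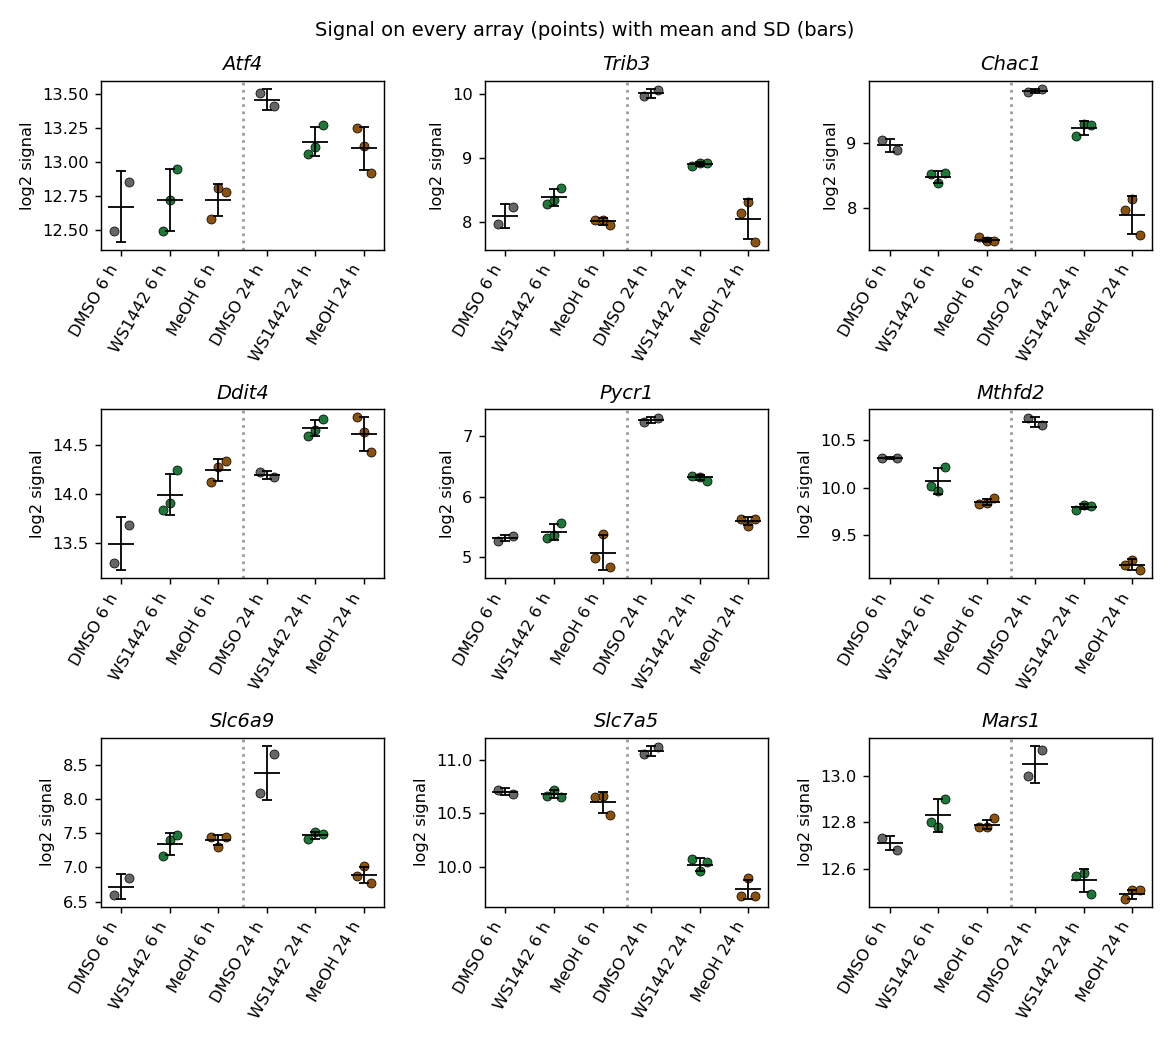
Log2 signal of 9 genes in each group, with a point per array and the mean and SD of the group (n = 2 for DMSO, n = 3 for the treatments). Trib3, Chac1, Pycr1, Mthfd2, Slc6a9, Slc7a5 and Mars1 are below both DMSO arrays on all 6 treated arrays at 24 h, whereas Ddit4 is above them.

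All 9 genes of amino acid synthesis fell with WS1442 at 24 h and 8 with MeOH eluate, with medians of -0.54 and -0.91. Pycr1 encodes the enzyme of the last step of proline synthesis. Its signal was 7.24 and 7.30 with DMSO, 6.35, 6.33 and 6.27 with WS1442 and 5.64, 5.51 and 5.64 with MeOH eluate, with no overlap between the 3 groups. It fell by 0.95 ± 0.15 (adjusted p = 0.000434) and by 1.67 ± 0.15 (adjusted p = 2.89e-06), where the second value was -1.0 with normexp background correction. Aldh18a1, which starts proline synthesis from glutamate, had 9.16 and 9.13 with DMSO, 8.43, 8.41 and 8.33 with WS1442 and 8.25, 8.24 and 8.22 with MeOH eluate. Its changes were -0.76 ± 0.10 and -0.91 ± 0.10.

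The mitochondrial folate enzymes were also lower. Mthfd2, the methylenetetrahydrofolate dehydrogenase, had 10.73 and 10.66 with DMSO, 9.76, 9.82 and 9.81 with WS1442 and 9.19, 9.24 and 9.13 with MeOH eluate. It fell by 0.90 ± 0.07 (adjusted p = 2.16e-06) and by 1.51 ± 0.07 (adjusted p = 9.44e-09), differences that are large against the spread within each group. Shmt2, which converts serine to glycine in mitochondria, had 11.00 and 11.09 with DMSO, 10.10, 10.18 and 10.02 with WS1442 and 9.75, 9.67 and 9.63 with MeOH eluate. It fell by 0.95 ± 0.09 (adjusted p = 1.09e-05) and by 1.36 ± 0.09 (adjusted p = 1.37e-07).

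The enzymes of serine synthesis, Phgdh, Psat1 and Psph in the order of the pathway, all fell with both treatments. Psat1 had 12.17 and 12.23 with DMSO, 11.72, 11.64 and 11.71 with WS1442 and 11.27, 11.34 and 11.23 with MeOH eluate, with changes of -0.51 ± 0.05 and -0.92 ± 0.05. A dimmer probe of Psat1 had -0.84 and -1.02. Psph had 10.32 and 10.45 with DMSO, 9.85, 9.80 and 9.90 with WS1442 and 9.59, 9.63 and 9.52 with MeOH eluate, with changes of -0.54 ± 0.06 and -0.81 ± 0.06. For both genes MeOH eluate gave lower values than WS1442 on every array. Phgdh had 12.50 and 12.56 with DMSO, 12.30, 12.40 and 12.37 with WS1442 and 12.07, 11.97 and 11.89 with MeOH eluate. It changed by -0.17 ± 0.06 with WS1442 (adjusted p = 0.0371, a call lost in 10 of 27 alternative analyses, the methods' t-test not counted) and by -0.55 ± 0.06 with MeOH eluate (adjusted p = 8.81e-06). Asns, the asparagine synthetase and a classical target of the response, had 12.85 and 13.01 with DMSO, 12.58, 12.56 and 12.50 with WS1442 and 12.28, 12.27 and 12.19 with MeOH eluate. It fell by 0.38 ± 0.05 and 0.68 ± 0.05. Cth, which makes cysteine by transsulfuration, fell by 0.33 ± 0.08 with WS1442 (adjusted p = 0.00758, but -0.22 and not called without DMSO 24 h replicate 1) and had -0.12 ± 0.08 with MeOH eluate (adjusted p = 0.36).

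All 6 tested transporters fell with WS1442 at 24 h and 5 with MeOH eluate, with medians of -0.64 and -0.84. Slc7a5, which forms the exchanger of leucine and other large neutral amino acids with Slc3a2, had 11.05 and 11.12 with DMSO, 10.07, 9.96 and 10.04 with WS1442 and 9.73, 9.89 and 9.73 with MeOH eluate. It fell by 1.06 ± 0.07 (adjusted p = 6.56e-07) and by 1.30 ± 0.07 (adjusted p = 2.51e-08). The glycine transporter Slc6a9 had 8.09 and 8.66 with DMSO, 7.41, 7.52 and 7.49 with WS1442 and 6.88, 7.02 and 6.77 with MeOH eluate. The DMSO samples of Slc6a9 differed by more than the samples of either treatment, yet all 6 treated arrays lay below them, and the changes were -0.90 ± 0.15 (adjusted p = 0.000505) and -1.49 ± 0.15 (adjusted p = 6.31e-06). Slc7a1, a carrier of arginine and lysine, had 10.30 and 10.13 with DMSO, 9.69, 9.52 and 9.29 with WS1442 and 9.14, 9.13 and 9.25 with MeOH eluate, with changes of -0.71 ± 0.10 and -1.04 ± 0.10.

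The heavy chain gene Slc3a2 fell by 0.22 ± 0.06 with WS1442 and 0.64 ± 0.06 with MeOH eluate. Its call with WS1442 was lost without DMSO 24 h replicate 1 (-0.25), DMSO 24 h replicate 2 (-0.19) or WS1442 24 h replicate 1 (-0.16), while a dimmer probe of the gene had -0.52 (adjusted p = 0.00113). The neutral amino acid carrier Slc1a4 had 9.50 and 9.47 with DMSO, 9.03, 8.87 and 8.87 with WS1442 and 9.24, 9.13 and 9.26 with MeOH eluate. It fell by 0.56 ± 0.09 (adjusted p = 0.000347) and by 0.27 ± 0.09 (adjusted p = 0.0421), where the call with MeOH eluate was lost in 16 of the alternative analyses. Slc7a3, another carrier of cationic amino acids, fell by 0.43 ± 0.11 with WS1442 (adjusted p = 0.00953, but -0.38 and not called without DMSO 24 h replicate 2) and had -0.25 ± 0.11 with MeOH eluate (adjusted p = 0.134).

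**Figure D3:**
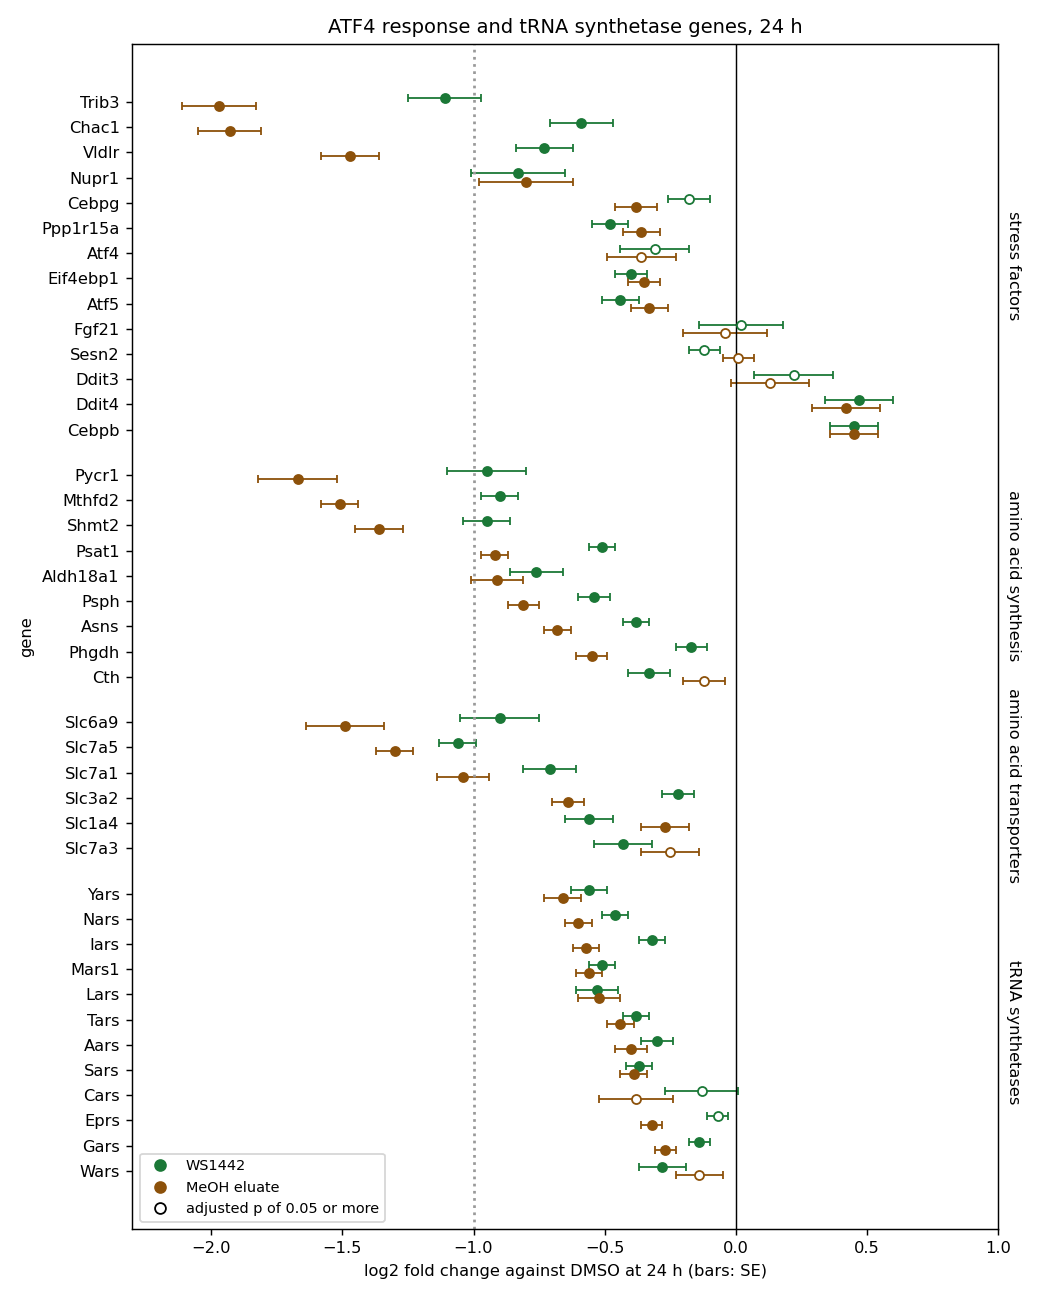
Log2 fold change against DMSO at 24 h with its SE for the 41 genes, grouped by class, with WS1442 and MeOH eluate side by side. Open symbols mark an adjusted p of 0.05 or above and the dotted line marks -1, beyond which lie 2 genes with WS1442 and 9 with MeOH eluate.

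Aminoacyl-tRNA synthetases load each tRNA with its amino acid. Of the 12 in the set, 10 fell with each treatment at 24 h, with medians of -0.34 and -0.42, and none changed by more than 2-fold. These medians were nearer to 0 than those of synthesis genes and transporters. Yars (tyrosine) had 12.51 and 12.57 with DMSO, 12.03, 12.04 and 11.89 with WS1442 and 11.81, 11.91 and 11.92 with MeOH eluate, with changes of -0.56 ± 0.07 (adjusted p = 7.73e-05) and -0.66 ± 0.07 (adjusted p = 1.16e-05). A dimmer probe of Yars was not called, with -0.28 and 0.19. Mars1 (methionine) had 13.00 and 13.11 with DMSO, 12.57, 12.58 and 12.49 with WS1442 and 12.47, 12.51 and 12.51 with MeOH eluate, with changes of -0.51 ± 0.05 and -0.56 ± 0.05. Nars (asparagine) had 11.82 and 11.77 with DMSO, 11.42, 11.28 and 11.30 with WS1442 and 11.22, 11.18 and 11.19 with MeOH eluate, with changes of -0.46 ± 0.05 and -0.60 ± 0.05.

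In each of these genes both treated groups lay below DMSO on every array. Iars (isoleucine) fell by 0.32 ± 0.05 and 0.57 ± 0.05, and Lars (leucine) by 0.53 ± 0.08 and 0.52 ± 0.08. Tars (threonine) fell by 0.38 ± 0.05 and 0.44 ± 0.05, Aars (alanine) by 0.30 ± 0.06 and 0.40 ± 0.06, and Sars (serine) by 0.37 ± 0.05 and 0.39 ± 0.05. Gars (glycine) changed least among those that fell with both, by -0.14 ± 0.04 (adjusted p = 0.0246) and -0.27 ± 0.04 (adjusted p = 0.000252). Its call with WS1442 was lost in 6 of the alternative analyses, among them those without either DMSO 24 h replicate (-0.16 and -0.11) or without WS1442 24 h replicate 2 or 3 (-0.13 for both), and the value was -0.35 with scaling to the 75th percentile. The call of Aars with WS1442 was lost without DMSO 24 h replicate 1 (-0.20) and when its kept probes were averaged. Wars (tryptophan) was called with WS1442, at -0.28 ± 0.09 (adjusted p = 0.0389), and had -0.14 ± 0.09 with MeOH eluate (adjusted p = 0.358), but its call was lost in 8 of the alternative analyses, among them those without DMSO 24 h replicate 1 (-0.35), DMSO 24 h replicate 2 (-0.21) or WS1442 24 h replicate 3 (-0.19). Eprs, the fused enzyme for glutamate and proline, fell with MeOH eluate by 0.32 ± 0.04 (adjusted p = 9.01e-05) and had -0.07 ± 0.04 with WS1442 (adjusted p = 0.232). Cars (cysteine) was called with neither, and its DMSO samples of 11.37 and 12.20 differed widely. A dimmer probe of Cars was lower with both, at -0.79 (adjusted p = 1.61e-05 and 5.5e-06), so the probes of this gene disagree.

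Synthetases outside the set were compared with these 12. Of 7 other cytosolic synthetases tested, 3 fell with WS1442 and 4 with MeOH eluate at 24 h, with medians of -0.26 and -0.25. The largest decreases were those of Dars (aspartate) with WS1442, -0.50 ± 0.08, and of Vars (valine) with MeOH eluate, -0.54 ± 0.06. Of 17 mitochondrial synthetases, 4 fell with WS1442, while 2 fell and 1 rose with MeOH eluate, with medians of -0.06 and -0.03. Among all tested genes 12.1% fell with WS1442, while 8.51% fell and 9.35% rose with MeOH eluate. The difference between the 3 groups of synthetases was not tested.

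**Figure D4:**
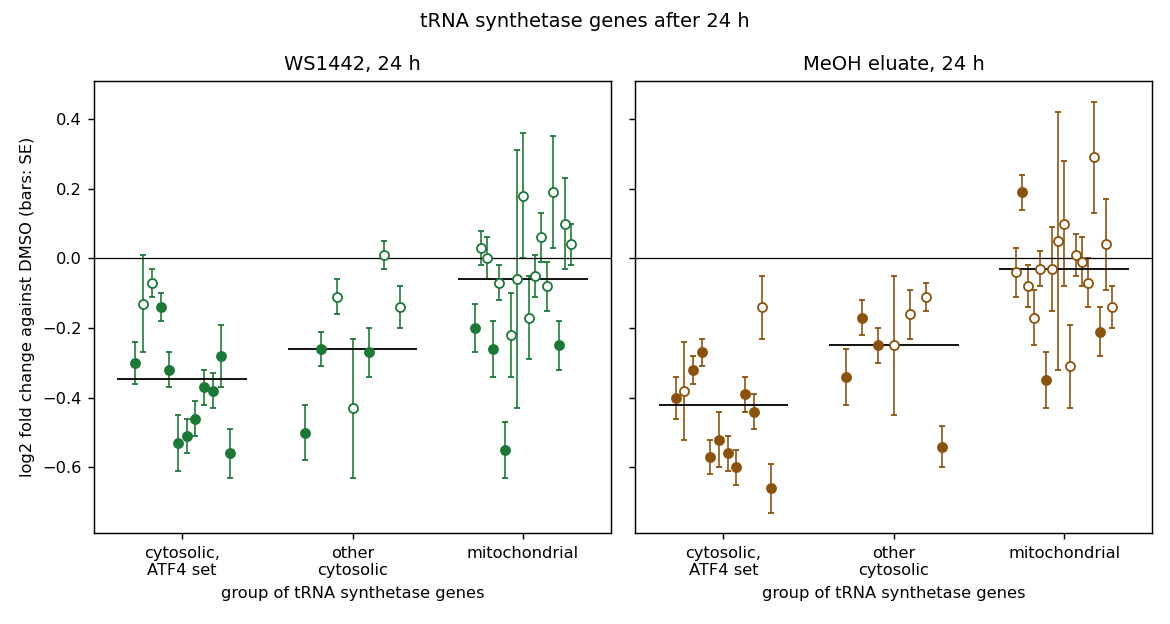
Log2 fold change against DMSO at 24 h of the 12 synthetases of the set, 7 other cytosolic and 17 mitochondrial synthetases, with a line at the median of each group. Medians are -0.34, -0.26 and -0.06 with WS1442 and -0.42, -0.25 and -0.03 with MeOH eluate.

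After 6 h the changes were fewer and went both ways. With WS1442 4 of 41 genes rose and 2 fell, compared with 3.95% and 1.36% of all tested genes, and the median was 0.06. With MeOH eluate 5 rose and 12 fell, compared with 8.40% and 8.53%, with a median of -0.03. Chac1 and Vldlr fell with both treatments at both times. At 6 h Chac1 had 9.05 and 8.90 with DMSO, 8.52, 8.38 and 8.54 with WS1442 and 7.54, 7.49 and 7.48 with MeOH eluate. Its changes were -0.49 ± 0.12 (adjusted p = 0.032) and -1.47 ± 0.12 (adjusted p = 2.22e-06). Vldlr had 8.44 and 8.61 with DMSO, 7.99, 7.97 and 8.24 with WS1442 and 7.50, 7.70 and 7.68 with MeOH eluate, with changes of -0.45 ± 0.11 (adjusted p = 0.0308) and -0.89 ± 0.11 (adjusted p = 8.48e-05).

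Cebpb, Ddit4 and Slc6a9 rose with both treatments at 6 h. Cebpb had 8.76 and 9.08 with DMSO, 9.28, 9.38 and 9.56 with WS1442 and 9.91, 9.98 and 10.06 with MeOH eluate. It rose by 0.49 ± 0.09 (adjusted p = 0.00949) and by 1.06 ± 0.09 (adjusted p = 3.39e-06), which was the largest increase among the 41 genes. Ddit4 had 13.30 and 13.68 with DMSO, 13.83, 13.91 and 14.24 with WS1442 and 14.12, 14.27 and 14.33 with MeOH eluate, with changes of 0.50 ± 0.13 (adjusted p = 0.0331) and 0.75 ± 0.13 (adjusted p = 0.00108). Slc6a9 had 6.60 and 6.85 with DMSO, 7.16, 7.40 and 7.47 with WS1442 and 7.44, 7.30 and 7.44 with MeOH eluate. It rose by 0.62 ± 0.15 (adjusted p = 0.0248) and 0.67 ± 0.15 (adjusted p = 0.00592), opposite to its change at 24 h. The call of Slc6a9 with MeOH eluate was lost without DMSO 6 h replicate 1, where the value was 0.54. Gars rose by 0.16 ± 0.04 with WS1442 (adjusted p = 0.0385), Sars by 0.18 ± 0.05 with MeOH eluate (adjusted p = 0.0393) and Ddit3 by 0.47 ± 0.15 with MeOH eluate (adjusted p = 0.0441), calls that were lost in 15, 10 and 13 of 27 alternative analyses. A dimmer probe of Ddit3 had 0.60 with MeOH eluate (adjusted p = 0.00969). All 6 calls with WS1442 at 6 h were lost without DMSO 6 h replicate 1, and the value of Ddit4 was then 0.31, as was that of Ddit3 with MeOH eluate.

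With MeOH eluate 4 of 9 genes of amino acid synthesis fell at 6 h and none rose, and 3 of 6 transporters fell and 1 rose. Mthfd2 had 10.31 in both DMSO samples and 9.83, 9.84 and 9.89 with MeOH eluate, a change of -0.45 ± 0.07 (adjusted p = 0.000389). Shmt2, Aldh18a1 and Cth fell by 0.43 ± 0.09, 0.36 ± 0.10 and 0.51 ± 0.08, and the transporters Slc1a4, Slc7a1 and Slc3a2 by 0.52 ± 0.09, 0.34 ± 0.10 and 0.21 ± 0.06. Ppp1r15a, Aars and Tars fell by 0.28 ± 0.07, 0.26 ± 0.06 and 0.15 ± 0.05. Several of these calls did not hold under the alternative analyses, since that of Tars was lost in 13 of 27, those of Slc3a2 and Slc7a1 in 6 each, that of Aldh18a1 in 5, that of Ppp1r15a in 4 and that of Aars in 1. Those of Mthfd2, Shmt2, Cth and Slc1a4 were lost in none. Slc7a5, Psat1, Pycr1 and Trib3, among the largest decreases at 24 h, had adjusted p between 0.31 and 0.715 here, with changes between -0.24 and 0.07. Of the 7 other cytosolic synthetases, 6 fell with MeOH eluate at 6 h, 2 of the 12 in the set did, and 8.53% of all tested genes did.

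Whether an effect differed between the time points was tested as the interaction of treatment and time. With WS1442 the effect was lower at 24 h than at 6 h for 24 of 41 genes and higher for none, compared with 6.89% and 5.53% of all tested genes. With MeOH eluate it was lower for 27 and higher for 1, compared with 3.69% and 3.80%. The median difference was -0.37 and -0.53. Slc6a9 had the largest differences, -1.52 ± 0.21 with WS1442 (adjusted p = 0.000961) and -2.16 ± 0.21 with MeOH eluate (adjusted p = 1.5e-05), as its change against DMSO turned from a rise to a fall. Trib3 followed with -1.40 ± 0.20 and -1.87 ± 0.20, and Pycr1 with -1.06 ± 0.21 and -1.43 ± 0.21. Chac1 showed no such difference that passed the threshold, at -0.10 ± 0.17 and -0.46 ± 0.17 (adjusted p = 0.771 and 0.136). The single gene with a higher MeOH eluate effect at 24 h was Cth, by 0.39 ± 0.11 (adjusted p = 0.0466). No gene was called higher with scaling to the 75th percentile, without the filter on dim probes, without the trend or with the replicate block. The same held without MeOH eluate 6 h replicate 1 or 3 or MeOH eluate 24 h replicate 1 or 2. It also held without WS1442 6 h replicate 3 or WS1442 24 h replicate 1, 2 or 3. The call of Cth was lost as well without DMSO 6 h replicate 1 or 2 or DMSO 24 h replicate 2.

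**Figure D5:**
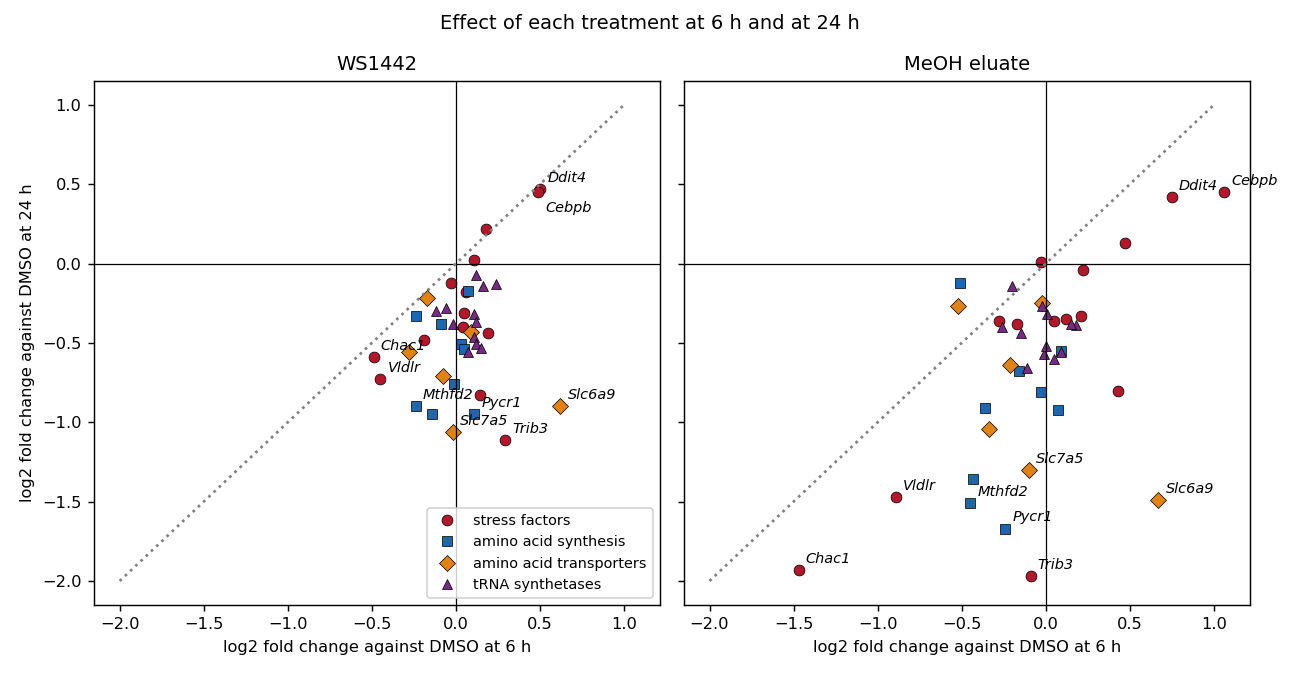
Log2 fold change against DMSO at 24 h plotted against that at 6 h for the 41 genes, in 1 panel per treatment. The dotted line marks equal effects, and 40 genes lie below it with WS1442 and 37 with MeOH eluate.

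MeOH eluate at 0.1 mg/ml was also compared directly with WS1442 at 0.25 mg/ml. The doses differ, so a difference belongs to the pair of preparation and dose. At 24 h 18 of 41 genes were called lower with MeOH eluate and 1 higher, compared with 6.97% and 7.45% of all tested genes. The largest differences were those of Chac1 (-1.34 ± 0.11, adjusted p = 1.47e-05), Trib3 (-0.86 ± 0.12, adjusted p = 0.000604), Vldlr (-0.73 ± 0.10) and Pycr1 (-0.72 ± 0.13). The others were Mthfd2, Slc6a9, Psat1, Shmt2, Slc3a2, Phgdh, Slc7a1, Asns, Psph, Iars, Slc7a5, Eprs, Nars and Gars. Slc1a4 was the gene that was higher with MeOH eluate, by 0.29 ± 0.08 (adjusted p = 0.0204). At 6 h 8 genes were lower and 1 higher, compared with 7.55% and 4.62%, led by Chac1 (-0.98 ± 0.11) and Cebpb (0.58 ± 0.08).

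Gene lists around the response gave the context of these changes. Of 24 further ATF4 targets tested, 4 rose and 9 fell with WS1442 at 24 h, and 3 rose and 11 fell with MeOH eluate, with medians of -0.17 and -0.26. Among all tested genes 12.4% rose and 12.1% fell with WS1442 at 24 h, and 9.35% and 8.51% with MeOH eluate, which also applies to the other lists of this paragraph. At 6 h 5 of the 24 further targets rose and 0 fell with WS1442, compared with 3.95% and 1.36% of all tested genes. With MeOH eluate 7 rose and 3 fell at 6 h, compared with 8.40% and 8.53%. Pck2, the mitochondrial phosphoenolpyruvate carboxykinase, fell by 0.78 ± 0.11 and 1.28 ± 0.11. Gpt2, an alanine aminotransferase of mitochondria, fell by 0.61 ± 0.07 and 1.01 ± 0.07 at 24 h after it had risen by 0.32 ± 0.07 and 0.30 ± 0.07 at 6 h. Atf3, a stress-induced repressor that is reached by several pathways, went the other way and rose by 1.33 ± 0.07 and 1.60 ± 0.07 at 24 h (adjusted p = 7.05e-08 and 5.32e-09). Ndrg1, which responds to hypoxia as well, rose by 1.20 ± 0.13 with MeOH eluate at 6 h. Of 10 genes for the eIF2alpha kinases and their regulators, 3 rose and 2 fell with WS1442 at 24 h, and 2 rose and 1 fell with MeOH eluate. Of 19 genes of the IRE1 and ATF6 arms of the unfolded protein response, 1 rose and 8 fell with WS1442 at 24 h and 2 rose and 4 fell with MeOH eluate, none by more than 2-fold.

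Markers of cell types moved at 24 h beside these genes. Given as the sum of the linear signals of a list, the cardiomyocyte markers (4 of 5 tested, Myh6 excepted) lay at 949 to 1507 with DMSO, 574 to 658 with WS1442 and 414 to 464 with MeOH eluate. The 10 mesoderm and cardiac progenitor markers lay at 2963 to 3063, 2536 to 2779 and 2130 to 2445, and the 5 endothelial and blood markers at 604 to 605, 392 to 432 and 364 to 434. The 4 neuroectoderm markers were higher, at 5930 to 6056, 7381 to 7802 and 7273 to 8191. The 6 pluripotency markers overlapped between groups, at 8505 to 8793, 8582 to 9241 and 8337 to 9808, as did the endoderm markers (4 of 5 tested, Ttr excepted) at 1208 to 1305, 1223 to 1412 and 1049 to 1248. Single markers that changed by more than 2-fold with both treatments at 24 h were Myl7 (-1.17 and -2.02), Sox17 (-1.25 and -1.65) and Tal1 (-1.20 and -1.89). The lists were mixed. Of the 10 mesoderm and cardiac progenitor markers 3 fell and 1 rose with WS1442, and 4 fell with MeOH eluate. Of the 4 cardiomyocyte markers 2 fell with each treatment. Of the 5 endothelial and blood markers 1 fell with WS1442, and 2 fell and 1 rose with MeOH eluate. Of the 4 neuroectoderm markers 3 and 2 rose. Among all tested genes 12.1% fell and 12.4% rose with WS1442, and 8.51% and 9.35% with MeOH eluate. The blood marker Hbb-bh1 rose by 1.45 ± 0.38 with MeOH eluate (adjusted p = 0.0151), and of the 4 endoderm markers Afp rose with WS1442 by 0.52 ± 0.11 whereas Sox17 and Cer1 (-1.10 ± 0.27) fell, with a median of -0.67. The part of these shifts in the changes of the amino acid response genes was not tested.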

How the data were processed

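Total RNA of 16 samples was labelled with Cy3 and hybridised to 1-colour Agilent arrays, scanned with Agilent Feature Extraction 11.5.1.1. The intensities deposited by the authors are in arbitrary units and background corrected but not normalized between arrays. A further table of intensities deposited by the authors was quantile normalized over all arrays, and each of its 16 columns matched its own array best. It served as an alternative.

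Of 62912 spots per array, 61473 were gene spots, of which 55.1 to 63.0% were well above background. Spots marked as non-uniform were set missing. Quantile normalization of the log2 intensities, which the study names, was run in limma 3.58.1 (R 4.3.3) on all 16 arrays (tables and figures with Python 3.11.15). The filter required a signal well above background on each array of some group, which left 36729 probes, and a gene was represented by its brightest kept probe. Probes are named on the array mostly by RefSeq accession and were named through RefSeq (GRCm38.p6). Of the 42 genes, 10 have their symbol on the array itself. All 41 tested genes were well above background on all 16 arrays.

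A model of 6 group means was fitted (eBayes with trend), with 8 contrasts. Genes were called at an adjusted p under 0.05 (Benjamini-Hochberg over all genes tested). Array values are given for Atf4 and for up to 8 called genes per class with the largest changes, on the arrays of the comparison described, other genes by changes, ranges or counts. Genes of other lists are named where called and changed more than 2-fold, and Dars, Vars and the gene counts of 5 or fewer were named after their values were seen. The number of arrays limits the precision. Alternatives covered the normalization, background correction, probe choice, filter, model, a replicate block, the methods' t-test and leaving out each array. The fit was tested on simulated data. The genes, lists and tests were chosen with earlier results of these data known.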

Additional observations from a re-analysis of the deposited data

Results flagged for a closer look

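The effect of a treatment relative to DMSO differed between 6 h and 24 h by more than 2-fold, by the interaction of treatment and time in limma (Benjamini-Hochberg adjusted p under 0.05), for the genes named here. All differences are log2 values of the effect at 24 h minus that at 6 h.

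With WS1442 these were Trib3 (-1.40 ± 0.20 SE, adjusted p = 0.00119), Pycr1 (-1.06 ± 0.21, adjusted p = 0.00652), Slc7a5 (-1.04 ± 0.09, adjusted p = 5.89e-05) and Slc6a9 (-1.52 ± 0.21, adjusted p = 0.000961). With MeOH eluate they were Trib3 (-1.87 ± 0.20, adjusted p = 3.76e-05), Nupr1 (-1.23 ± 0.26, adjusted p = 0.00782), Mthfd2 (-1.05 ± 0.10, adjusted p = 9.09e-06), Pycr1 (-1.43 ± 0.21, adjusted p = 0.00068), Slc7a5 (-1.20 ± 0.09, adjusted p = 2.68e-06) and Slc6a9 (-2.16 ± 0.21, adjusted p = 1.5e-05). The 2 time points were on different slides, and the part of the slide in these differences was not tested.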

How the results depend on the processing

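No gene called in a comparison with DMSO was lower under 1 setting and higher under another, over the alternatives run. Single genes were not followed in this way for the comparison between the treatments or between the times. The counts of called genes in the comparisons at 24 h with DMSO (34 with WS1442, 33 with MeOH eluate) stayed within 1.5 times under each alternative except the methods' t-test. Of the 34 calls with WS1442 25 held under each alternative but that t-test, of the 33 with MeOH eluate 28, of the 17 with MeOH eluate at 6 h 8, and of the 6 with WS1442 at 6 h 0.

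At 6 h the count with WS1442 was 2 in place of 6 without the filter on dim probes, within the time point, without the trend and with the replicate block. The count with MeOH eluate was 11 in place of 17 with the replicate block. The count between the treatments at 6 h was 17 in place of 9 with scaling to the 75th percentile, and 5 within the time point and with the slide row as a block. The cause was not tested.

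The methods' t-test after Benjamini-Hochberg called 0 genes with WS1442 at 6 h (13 at an unadjusted p under 0.05), 0 with MeOH eluate at 6 h (19), 0 with WS1442 at 24 h (35), 10 with MeOH eluate at 24 h (32), 1 between the treatments at 6 h (13) and 2 at 24 h (22). At an unadjusted p under 0.05 with more than 2-fold it called 0, 2, 2 and 9 in the comparisons with DMSO, in the same order. It estimates the spread from each pair of groups alone, with 2 DMSO arrays.

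Leaving out each array in turn gave 0 to 7 genes with WS1442 and 9 to 20 with MeOH eluate at 6 h, 27 to 34 and 30 to 34 at 24 h, 3 to 11 between the treatments at 6 h and 15 to 21 at 24 h. For the effect at 24 h minus that at 6 h it gave 20 to 25 with WS1442 and 23 to 28 with MeOH eluate. Of the 6 h arrays, leaving out replicate 1 of DMSO gave 0 genes with WS1442 and leaving out replicate 2 gave 3, while leaving out replicate 2 of WS1442 gave 2 and replicate 3 gave 3. With MeOH eluate, 9 genes were called when replicate 1 of DMSO was left out and 10 when replicate 3 of MeOH eluate was. Between the treatments, 3 were called when replicate 3 of WS1442 was left out, 4 when replicate 1 of MeOH eluate was and 5 when its replicate 3 was.

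Deviations from the group mean correlated between -0.23 and 0.30 for same-numbered samples of different groups, and between -0.20 and 0.25 for differently numbered ones. Whether equal numbers were paired cannot be decided from this, since the deviations of the 2 DMSO samples of a time point mirror each other. With the replicate block the counts were 31 with WS1442 and 32 with MeOH eluate at 24 h, 7 and 19 between the treatments at 6 h and 24 h, and 20 and 24 for the effects at 24 h minus 6 h. A block for the slide could not be fitted, since each slide held 1 time point. Yars had -0.24 with MeOH eluate at 24 h when its kept probes were averaged.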

Other observations

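In the DMSO samples the same genes had higher signals at 24 h than at 6 h, a description that cannot be told apart from the slide. Both 24 h samples lay above both 6 h samples for 35 of 41 genes and below them for 4. Of 30973 tested genes, 10987 (35.5%) lay above and 11487 below. The median difference of the means was 0.38, compared with -0.01 over all tested genes. In the set the means of 6 genes were more than 2-fold higher at 24 h and 0 lower, compared with 1128 and 2678 of 30973 tested genes. The 6 genes were Pycr1 (1.96), Trib3 (1.92), Slc6a9 (1.65), Nupr1 (1.63), Ddit3 (1.39) and Vldlr (1.24). With WS1442 the differences between the times were 0.90 for Pycr1, 0.52 for Trib3, 0.13 for Slc6a9, 0.65 for Nupr1, 1.43 for Ddit3 and 0.96 for Vldlr. With MeOH eluate they were 0.53, 0.04, -0.51, 0.40, 1.05 and 0.67 in the same order. The DMSO difference of a gene is by arithmetic part of its interaction of treatment and time. Of the 7 other cytosolic synthetases 1 had both 24 h samples above both 6 h samples, compared with 10 of the 12 synthetases of the set. So did 10 of 17 mitochondrial synthetases, 19 of 24 further ATF4 targets and 1 of 19 genes of the IRE1 and ATF6 arms.

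Of the 10 genes for the eIF2alpha kinases and their regulators, 3 rose and 2 fell with WS1442 at 24 h. With MeOH eluate 2 rose and 1 fell, and the medians were 0.14 and 0.03. Among all tested genes 12.4% rose and 12.1% fell with WS1442, and 9.35% and 8.51% with MeOH eluate. The genes that fell are not named here. Impact, an inhibitor of GCN2 activation, rose at both times, by 0.29 ± 0.07 with WS1442 and 0.58 ± 0.07 with MeOH eluate at 6 h and by 0.46 ± 0.07 and 0.65 ± 0.07 at 24 h (adjusted p = 0.0305, 7.97e-05, 0.000415 and 1.75e-05). Eif2ak2, which encodes the kinase PKR, rose by 0.35 ± 0.09 and 0.56 ± 0.09 at 24 h. Eif2ak4, which encodes GCN2, had 0.17 ± 0.07 and -0.00 ± 0.07 and was not called. These genes were named after their values were seen.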
